A study of Mus musculus with 6 samples.

Results

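The immunity-related GTPases are a family of interferon-inducible GTPases, described here through the 7 member genes Igtp, Irgm1, Irgm2, Iigp1, Ifi47, Tgtp1 and Tgtp2 of the 32285 genes in the count tables. The members were chosen by symbol, with earlier results of these data known. The study engrafted mice with the ovalbumin-expressing B16 melanoma line B16-OVA and sorted CD45+ CD3+ CD8+ Tomato+ T cells 12 days later from the tumor and from the draining lymph node (LN) for droplet single-cell RNA sequencing. Controls carried CD8-Cre and Rosa26Tomato. CD8-IFNγRKO mice carried the same alleles together with IFNgR1flox/flox, so that every group shared the Cre and the Tomato reporter. The Cre is driven by CD8 regulatory sequence and deletes in mature CD8 T cells, while other cells of the host keep the IFNγ receptor. Each of the 4 gene expression libraries pooled cells of 3 mice, and the 2 tumor libraries also had T cell receptor (TCR) libraries. With 1 library per genotype and tissue, no test between groups was possible, and differences between pools of mice or library preparations cannot be told apart from genotype or tissue. Intervals given below are 95% intervals that cover counting error only.

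In mice the family divides into regulatory members with a GMS motif in the GTPase domain (Igtp, also called Irgm3, with Irgm1 and Irgm2) and effector members with the canonical GKS motif (Iigp1, also called Irga6, Ifi47, also called Irgd, and the Irgb6 copies Tgtp1 and Tgtp2). The effectors load onto the membrane of vacuoles that hold intracellular parasites such as Toxoplasma, and the regulators keep the effectors inactive on the membranes of the cell's own compartments. Interferon-γ induces the family, and type I interferons can induce it too.

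In the RefSeq annotation of GRCm38.p6, which is the mm10 assembly, 6 of the 7 members lay on chromosome 11 in 2 groups. Irgm1 (chr11:48865245-48871420), Tgtp1 (chr11:48985329-48992246), Tgtp2 (chr11:49057196-49064212) and Ifi47 (chr11:49076587-49096987) lay within 232 kb. Igtp (chr11:58199556-58207592) and Irgm2 (chr11:58214977-58222783) lay within 23.2 kb. Iigp1 lay elsewhere in the genome. All 7 were protein-coding. The annotated span of Tgtp1 overlapped the long non-coding RNA Gm42074 and that of Ifi47 overlapped the pseudogene Gm12188. Tgtp1 and Tgtp2 are near-identical copies, so how UMIs were divided between them is uncertain, and their sum is given as well for the genotype ratios. Values of either copy alone carry this uncertainty.

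The RefSeq promoter table held 6 of the members, all but Iigp1. The 250 bases before each annotated start were searched on both strands for GAAANNGAAA, the core of an interferon-stimulated response element (ISRE), and for TTCNNNGAA, the core of a gamma-activated site (GAS) that reads the same on both strands. The ISRE-type letters were found before 5 of the 6 members and before 2.98% of all 32851 promoters in the table. The GAS-type letters were found before 4 of the 6 and before 7.02% of all promoters. Both were present before Igtp, Irgm2, Tgtp1 and Tgtp2, against 0.332% of all promoters. Ifi47 had neither in this window. Other interferon-induced genes described below held such letters too. Of 6 promoters of guanylate-binding protein genes, 5 held the ISRE-type letters and 2 held both. Of 14 promoters of the IFIT and ISG15 list, 7 held the ISRE-type letters and 0 held both. The 100 bases before the start are shown for the 5 members with a match because the same short arrangement recurs in them, with the matched letters in capitals, read 5′ to 3′ on the strand of the gene.
Igtp, chr11:58199456-58199555, plus strand: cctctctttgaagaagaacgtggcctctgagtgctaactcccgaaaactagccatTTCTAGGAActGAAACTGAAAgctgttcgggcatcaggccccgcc
Irgm2, chr11:58214877-58214976, plus strand: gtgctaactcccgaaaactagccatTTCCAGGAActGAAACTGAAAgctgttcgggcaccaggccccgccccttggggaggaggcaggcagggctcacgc
Tgtp1, chr11:48992247-48992346, minus strand: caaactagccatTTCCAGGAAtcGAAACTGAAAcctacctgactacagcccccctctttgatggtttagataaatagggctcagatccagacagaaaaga
Tgtp2, chr11:49064213-49064312, minus strand: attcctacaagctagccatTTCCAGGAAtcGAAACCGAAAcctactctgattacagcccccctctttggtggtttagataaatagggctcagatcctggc
Irgm1, chr11:48871421-48871520, minus strand: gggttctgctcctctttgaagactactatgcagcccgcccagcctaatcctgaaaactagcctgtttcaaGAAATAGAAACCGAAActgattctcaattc

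Irgm1 held 2 overlapping ISRE-type matches and no GAS-type match. When the 21 bases that end with the last ISRE-type match were aligned without gaps, 16 of the 21 were the same in all 5 genes. The pairs shared between 16 and 20 bases, with 20 shared by Igtp and Irgm2 and 20 by Tgtp1 and Tgtp2. Part of this sharing was fixed by the search. All 5 genes were kept for holding GAAANNGAAA, on which the alignment was anchored, and all but Irgm1 also held TTCNNNGAA. Sharing outside these letters was not counted separately. These matches describe the letters of the window and are not evidence of binding.

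After filtering, 7080 cells were kept from the control tumor, 8628 from the CD8-IFNγRKO tumor, 6640 from the control LN and 6731 from the CD8-IFNγRKO LN, with median depths of 3863 to 9399.5 unique molecular identifiers (UMIs) per cell. Pairs of libraries shared 51 to 82 cell barcodes, at most 1.23% of a library. All 6 T cell-defining genes were present in every library, from 171 to 2119 counts per 1000000 UMIs (CPM), while the 10 listed myeloid genes summed to 22.6 CPM in the control tumor, 16.3 CPM in the CD8-IFNγRKO tumor, 2.81 CPM in the control LN and 5.17 CPM in the CD8-IFNγRKO LN, most of it Cd68 in the tumor, and C1qa, C1qb, C1qc, Lyz2 and Csf1r were each at or below 1.07 CPM. Ifngr1, the targeted gene, was at 719 CPM in the control tumor and 238 CPM in the CD8-IFNγRKO tumor, and at 182 CPM in the control LN and 137 CPM in the CD8-IFNγRKO LN. Whether the counted reads fell in the floxed part of Ifngr1 was not tested.

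All 7 members were lower in CD8-IFNγRKO than in control cells, in the tumor and in the LN, and every counting interval of these differences lay below 0. Such an interval was also found for 36.1% of the 7716 genes of at least 10 CPM in the tumor and for 9.02% of 7472 in the LN. Over the members summed, the level was 489 CPM (95% interval 483 to 495) in the control tumor and 381 CPM (377 to 385) in the CD8-IFNγRKO tumor. In the LN it was 587 CPM (579 to 596) in control and 509 CPM (501 to 517) in CD8-IFNγRKO cells. The log2 ratio of CPM, with 1 CPM added to each, was -0.36 (-0.38 to -0.34) in the tumor and -0.21 (-0.24 to -0.17) in the LN. Ifi47 alone gave 241 CPM of the sum in the control tumor.

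**Figure D1:**
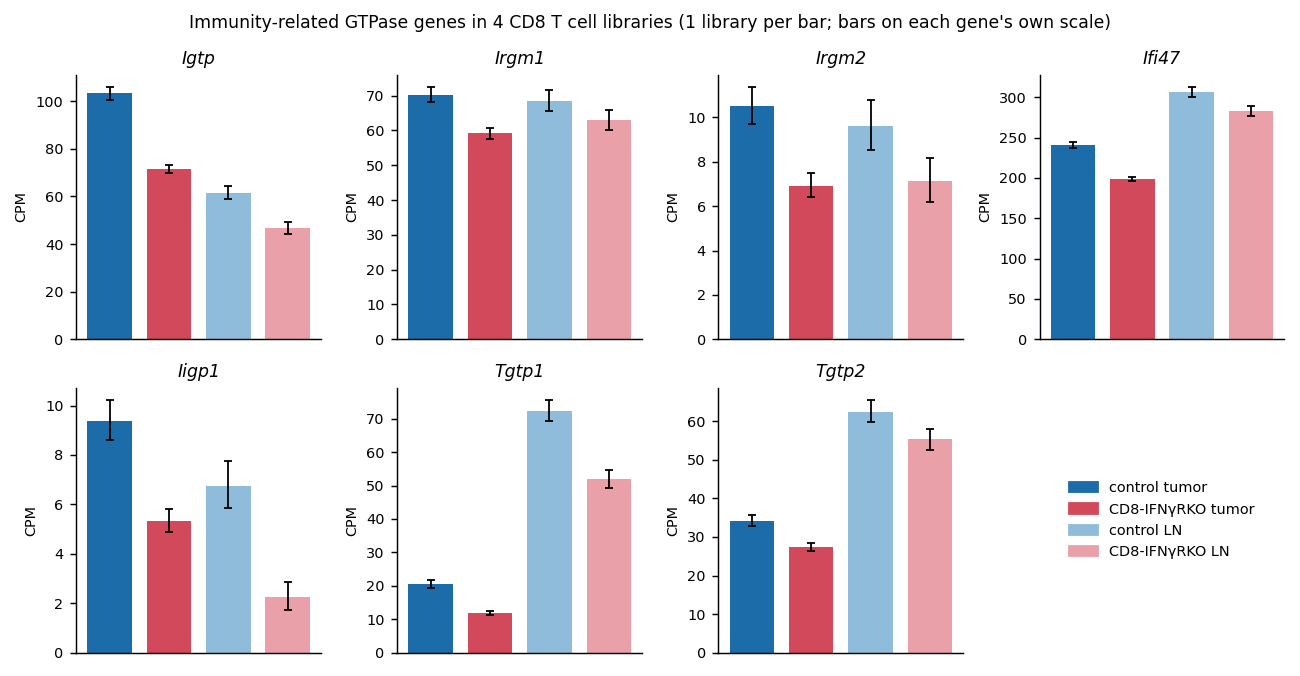
CPM of each member in the 4 libraries, with 95% Poisson intervals (counting error only, 1 library per bar, each gene on its own scale). Each CD8-IFNγRKO bar is below the control bar of the same tissue, while Igtp is highest in the control tumor (103 CPM) and Tgtp1 in the control LN (72.3 CPM).

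Among the regulatory members, Igtp was at 103 CPM (101 to 106) in the control tumor, 71.5 CPM (69.8 to 73.2) in the CD8-IFNγRKO tumor, 61.6 CPM (58.8 to 64.5) in the control LN and 46.8 CPM (44.4 to 49.4) in the CD8-IFNγRKO LN. No intervals of the 4 libraries overlapped. The log2 ratio of CD8-IFNγRKO over control was -0.52 (-0.57 to -0.47) in the tumor and -0.39 (-0.49 to -0.29) in the LN. Irgm1, which also acts in autophagy and in the survival of activated lymphocytes, stood closer together, at 70.3, 59.2, 68.5 and 62.9 CPM in the same order of libraries. Its 2 control libraries had overlapping intervals, and its log2 ratios were -0.24 (-0.30 to -0.19) in the tumor and -0.12 (-0.21 to -0.03) in the LN. Irgm2 was low throughout, at 10.5, 6.93, 9.62 and 7.14 CPM. Its log2 ratios were -0.54 (-0.68 to -0.39) and -0.38 (-0.62 to -0.15), and the tissues overlapped within each genotype.

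Among the effector members, Ifi47 had the most UMIs, at 241 CPM (237 to 245) in the control tumor, 198 CPM (196 to 201) in the CD8-IFNγRKO tumor, 306 CPM (300 to 312) in the control LN and 283 CPM (277 to 289) in the CD8-IFNγRKO LN. Its log2 ratios were small, at -0.28 (-0.31 to -0.25) in the tumor and -0.11 (-0.16 to -0.07) in the LN. Iigp1, at chr18:60373616-60392634, was under 10 CPM in every library, at 9.39 CPM (8.62 to 10.2), 5.34 CPM (4.88 to 5.82), 6.75 CPM (5.85 to 7.75) and 2.25 CPM (1.74 to 2.87) in the same order. Over all UMIs, only Iigp1 had a log2 ratio further from 0 in the LN than in the tumor. It was at -1.25 (-1.56 to -0.94) in the LN and -0.71 (-0.87 to -0.56) in the tumor. The LN value rests on 202 UMIs in control and 65 UMIs in CD8-IFNγRKO cells. After each cell was thinned to an equal number of UMIs, other members were further from 0 in the LN too. Igtp was at -0.47 in the LN and -0.42 in the tumor. Irgm2 was at -0.68 and -0.16, Tgtp1 at -0.38 and -0.30, and Tgtp2 at -0.18 and -0.09. Irgm1 and Ifi47 were further from 0 in the tumor. Apart from Iigp1, the thinned intervals of each member overlapped between the tissues.

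Tgtp1 was at 20.5 CPM (19.4 to 21.7) in the control tumor and 11.9 CPM (11.2 to 12.6) in the CD8-IFNγRKO tumor, against 72.3 CPM (69.3 to 75.5) in the control LN and 51.8 CPM (49.2 to 54.5) in the CD8-IFNγRKO LN. Its log2 ratios were -0.74 (-0.86 to -0.63) in the tumor and -0.47 (-0.57 to -0.38) in the LN. Tgtp2 was at 34.2, 27.4, 62.5 and 55.3 CPM, with log2 ratios of -0.31 (-0.39 to -0.23) and -0.17 (-0.27 to -0.08). The copies together gave -0.47 (-0.54 to -0.40) in the tumor and -0.33 (-0.40 to -0.26) in the LN.

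**Figure D2:**
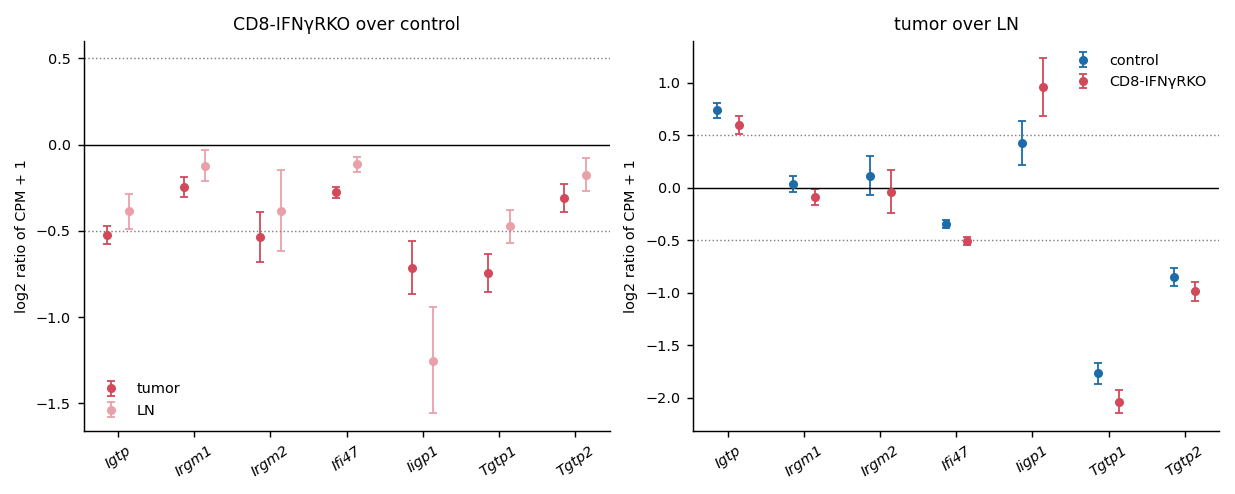
Log2 ratio of CPM + 1 for each member, CD8-IFNγRKO over control in each tissue (left) and tumor over LN in each genotype (right), with 95% counting intervals. Dotted lines mark 0.5 in either direction. All points on the left are below 0, and on the right Igtp (0.74 in control) and Tgtp1 (-1.77 in control) lie on opposite sides.

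Against all genes, a difference was called at a log2 ratio of 0.5 or more in size among genes of at least 10 CPM in either library. In the tumor, 6 members reached that level and 3 of them (Igtp, Irgm2 and Tgtp1) were called lower, where 5.07% of 7716 genes were called lower. The median log2 ratio was -0.42 over these members and 0.02 over all genes. In the LN, 5 members reached the level, Irgm2 and Iigp1 not among them, and 0 were called lower, where 0.428% of 7472 genes were. Their median was -0.17, against 0.03 over all genes. Tgtp1 and Igtp stood low in the LN all the same, with 0.455% and 0.723% of genes below them. The T cell-defining genes moved in the tumor as well, with a median log2 ratio of -0.40 and 6 of 6 below 0, but had a median of 0.07 in the LN. Heat shock genes were higher in CD8-IFNγRKO cells, with medians of 0.81 in the tumor and 0.52 in the LN, and Mki67 and Top2a were higher in the tumor, with a median of 0.57. The part of these groups in the members' differences was not tested. When each cell was thinned to 1500 UMIs, so that deep cells no longer weighed more than shallow ones, the count called lower in the tumor fell from 3 to 0, the summed ratio was -0.25 (-0.30 to -0.20) in the tumor beside -0.22 (-0.27 to -0.16) in the LN, and all 7 members were still below 0. After thinning Tgtp1 was at -0.30 (-0.54 to -0.05) in the tumor, and the intervals of Irgm2 (-0.16) and Tgtp2 (-0.09) there reached past 0. The share of all genes called lower after thinning was not counted, so the fall in called members cannot be set against it.

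The genes around the members in the pathway gave a mixed picture. Irf1, an interferon-induced transcription factor, had log2 ratios of -0.74 (-0.77 to -0.71) in the tumor and -0.10 (-0.15 to -0.06) in the LN. Socs1, an inhibitor of cytokine receptor signalling, had -0.45 (-0.51 to -0.40) and -0.16 (-0.25 to -0.07). Of the guanylate-binding proteins, the larger interferon-inducible GTPases that act at the same vacuoles, 1 of 9 was called lower in the tumor and 3 of 8 in the LN, with medians of -0.14 and -0.38. Gbp10 was the one called in the tumor, at -0.53. The IFIT and ISG15 list, genes that type I interferon induces strongly, had medians of 0.24 in the tumor and 0.09 in the LN, and MHC class I genes had medians of -0.01 and -0.16. Of 10 further immunity-related GTPase genes and relatives listed, 9 were in the count tables and 1 passed 10 CPM. This gene, 9930111J21Rik2, had -0.09 (-0.19 to 0.01) in the tumor and 0.25 (0.13 to 0.36) in the LN.

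Between genotypes the members all differed in the same direction, whereas between tissues they differed in both directions. Igtp was higher in the tumor than in the LN, with log2 ratios of 0.74 (0.66 to 0.81) in control and 0.60 (0.52 to 0.68) in CD8-IFNγRKO cells. Tgtp1 was lower in the tumor, at -1.77 (-1.87 to -1.67) and -2.04 (-2.15 to -1.93), as was Tgtp2, at -0.85 (-0.94 to -0.76) and -0.99 (-1.08 to -0.90). Ifi47 was lower by less, at -0.35 and -0.51. Irgm1 and Irgm2 lay within 0.12 of 0 in both genotypes. Iigp1 was higher in the tumor on few UMIs, at 0.42 (0.22 to 0.63) and 0.96 (0.69 to 1.23). After thinning, Irgm2 stood at 0.60 and Irgm1 at 0.10 in CD8-IFNγRKO cells, and all members summed at -0.11 in control and -0.14 in CD8-IFNγRKO cells. The regulatory members summed were higher in the tumor, at 0.40 (0.34 to 0.45) and 0.23 (0.18 to 0.29), and the effector members summed were lower, at -0.55 (-0.59 to -0.52) and -0.69 (-0.72 to -0.66). Of the members past 10 CPM in control cells, 2 of 6 were called lower and 1 of 6 higher, where 25.2% of genes were called lower and 28.8% higher. In CD8-IFNγRKO cells 3 of 5 were called lower and 1 of 5 higher, against 27.0% and 30.5% of genes, so these counts do not set the members apart from other genes.

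The profile of the summed members over the 4 libraries was compared with that of 8261 other genes by Euclidean distance of centred log2 values. The nearest genes were 1110032A03Rik, Vps9d1, Npc1, Idnk, Grasp, Pigm, Tmem64, 2410006H16Rik, Atxn7l2 and the MHC class I gene H2-Q4, at distances of 0.05 to 0.12. Of the members themselves, Ifi47 was nearest at 0.12 and Tgtp1 furthest at 1.60. With 4 libraries many genes share such a profile.

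In single cells the members were sparse. After thinning to 1500 UMIs, Ifi47 had a UMI in 30.2% of control tumor cells, 27.7% of CD8-IFNγRKO tumor cells, 35.3% of control LN cells and 33.2% of CD8-IFNγRKO LN cells. Without thinning these shares were 68.5%, 73.1%, 65.3% and 62.9%, so the unthinned order in the tumor was opposite to that of the levels. Igtp had a UMI in 15.1%, 11.7%, 9.02% and 6.82% of thinned cells. No cell type that lacks the members was in the sort, so the yardstick was genes of other cells. In thinned control tumor cells the macrophage gene C1qb had a UMI in 0.171% and the melanoma gene Mlana in 0.109%. The highest of the listed myeloid, melanoma and B cell genes there was Cd68, at 1.79%. Irgm2 at 1.73% and Iigp1 at 1.65% did not exceed it. In the control LN the highest was the B cell gene Cd79b at 2.46%, above Irgm2 at 1.57% and Iigp1 at 1.03%. Cells with UMIs of 3 or more members made up 3.83% (95% Clopper-Pearson interval 3.38 to 4.33) of control and 2.65% (2.32 to 3.01) of CD8-IFNγRKO tumor cells, and 4.42% (3.93 to 4.95) and 2.33% (1.98 to 2.72) in the LN. After thinning, no cell had UMIs of all 7.

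The members were higher in cells with more transcripts of other interferon-induced genes. Cells were placed in 4 classes by their UMIs of the IFIT and ISG15 list after thinning, a list that holds no member. In the control tumor the summed members were at 394 CPM in cells with 0 such UMIs, 553 CPM with 1 to 2, 901 CPM with 3 to 5 and 1506 CPM with 6 or more. In the CD8-IFNγRKO tumor the same classes were at 280, 408, 769 and 1457 CPM. In the LN they were at 520, 650, 1053 and 1551 CPM in control and at 445, 551, 908 and 1559 CPM in CD8-IFNγRKO cells. The intervals of neighbouring classes did not overlap in any of the 4 libraries. How many of all genes do the same was not counted. From 0 UMIs to 6 or more, Ifngr1 also rose in the tumor, from 685 to 879 CPM in control and 221 to 345 CPM in CD8-IFNγRKO cells. In the LN it did not rise, at 183 and 180 CPM in control and 139 and 120 CPM in CD8-IFNγRKO cells.

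**Figure D3:**
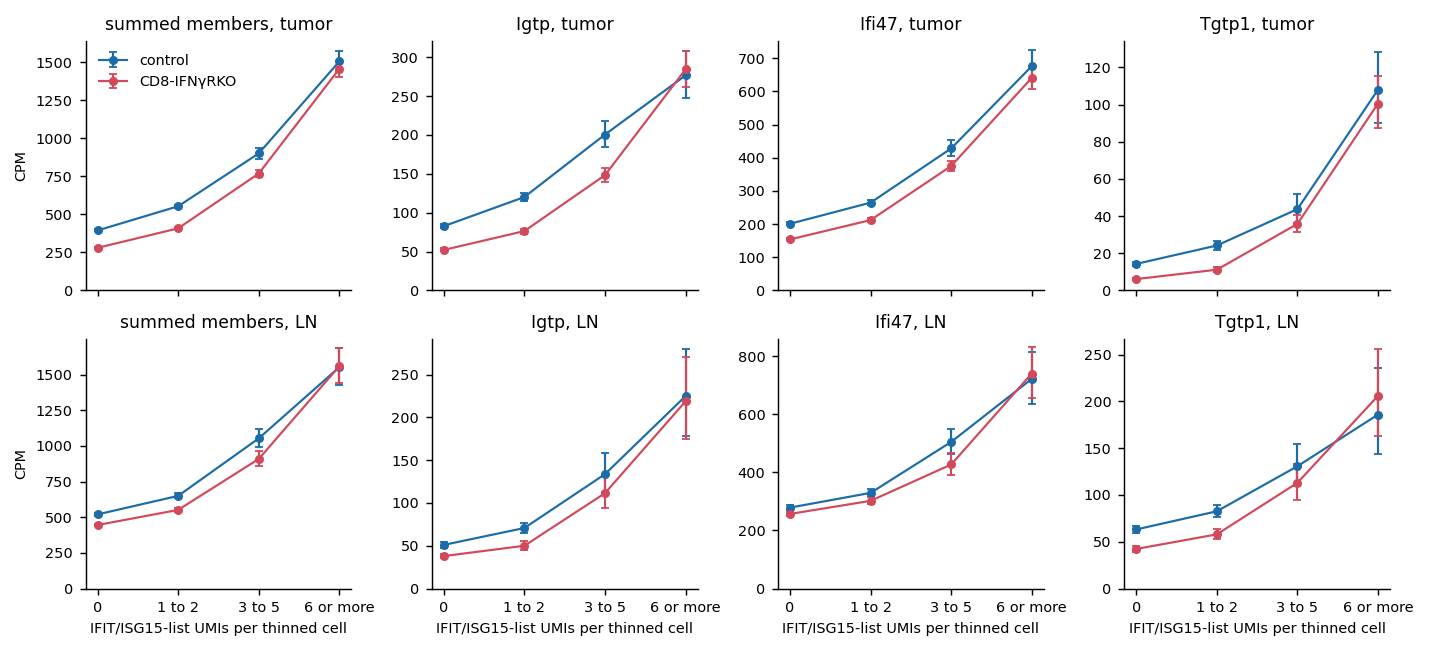
CPM of the summed members, Igtp, Ifi47 and Tgtp1 by IFIT and ISG15 UMIs per thinned cell, in tumor (top) and LN (bottom), with 95% Poisson intervals. The control and CD8-IFNγRKO lines lie apart at 0 UMIs (394 and 280 CPM for the summed members in the tumor) and meet at 6 or more (1506 and 1457 CPM).

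In the tumor the genotypes lay furthest apart in the cells with fewest of these transcripts and overlapped in the cells with most. The log2 ratio of CD8-IFNγRKO over control in the tumor was -0.49 (-0.52 to -0.46) at 0 UMIs, -0.44 (-0.48 to -0.40) at 1 to 2, -0.23 (-0.30 to -0.16) at 3 to 5 and -0.05 (-0.13 to 0.04) at 6 or more. The LN gave -0.22 (-0.26 to -0.18), -0.24 (-0.29 to -0.18), -0.21 (-0.33 to -0.09) and 0.01 (-0.16 to 0.17). Whether these ratios differ between classes could not be tested with 1 library each. In tumor cells with 0 UMIs, Tgtp1 was at -1.11 (-1.29 to -0.93), Iigp1 at -1.01 (-1.26 to -0.76) and Igtp at -0.66 (-0.73 to -0.58), while at 6 or more Igtp was at 0.04 (-0.16 to 0.24) and Tgtp1 at -0.10 (-0.42 to 0.22). Irgm1 was the exception at 6 or more in the tumor, at -0.22 (-0.42 to -0.01). The classes differed in depth, with median UMIs in the CD8-IFNγRKO tumor falling from 11271 at 0 UMIs to 4717 at 6 or more, and in the control tumor from 7475 to 4788, and the part of depth was not tested. In the LN the medians were within 3750 to 4113. Ifngr1 remained lower in the CD8-IFNγRKO tumor in the class with 6 or more, at 345 CPM against 879 CPM. Cells with 3 to 5 such UMIs were 6.11% of control and 9.20% of CD8-IFNγRKO tumor cells, and cells with 6 or more were 3.18% and 3.88%.

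Cells with a UMI of Tcf7, the transcription factor of naive, memory and stem-like T cells, stood out in the tumor, where the other cells held little Tcf7. In the control tumor the 177 Tcf7+ cells had summed members at 938 CPM, against 481 CPM in the 6238 other cells, and in the CD8-IFNγRKO tumor the 431 Tcf7+ cells were at 845 CPM, against 369 CPM. In the LN Tcf7+ and other cells were level, at 586 and 588 CPM in control and 515 and 502 CPM in CD8-IFNγRKO cells. The other LN cells still held Tcf7 over all UMIs, at 339 CPM in control and 323 CPM in CD8-IFNγRKO. Tcf7+ LN cells were at 770 and 749 CPM, and the other tumor cells at 5.76 and 8.22 CPM. Both LN classes thus hold Tcf7-expressing cells, so the LN split cannot show whether the members go with Tcf7 there. Tgtp1 showed the largest gap, at 129 CPM against 18.8 CPM in the control tumor, a log2 ratio of 2.71 (2.43 to 2.99), and at 80.0 CPM against 10.2 CPM in the CD8-IFNγRKO tumor, 2.86 (2.62 to 3.09). Since the division of UMIs between Tgtp1 and Tgtp2 is uncertain, this gap cannot be assigned to Tgtp1 alone. The IFIT and ISG15 list was also higher in the Tcf7+ tumor cells, at 942 CPM against 476 CPM in control and 1345 CPM against 539 CPM in CD8-IFNγRKO cells. The Tcf7+ tumor cells were shallower, with median UMIs of 3651 against 6989.5 in control and 3904 against 9969.5 in CD8-IFNγRKO cells, while the LN classes were close, at 4051 against 4139 and 3826 against 3912. The part of depth and of the IFIT and ISG15 level in these differences, and in the genotype ratio of Tcf7+ cells, was not tested.

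**Figure D4:**
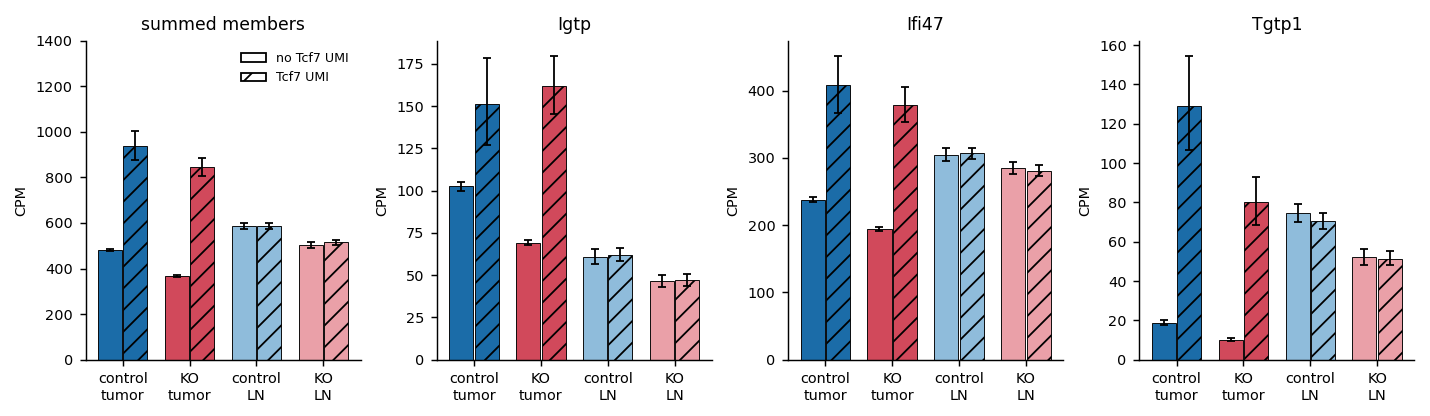
CPM in cells without (plain) and with (hatched) a Tcf7 UMI after thinning, in each library, with 95% Poisson intervals. KO stands for CD8-IFNγRKO. The hatched bars stand above the plain ones in both tumor libraries (129 against 18.8 CPM for Tgtp1 in control). In the LN the bars of the summed members are close, and the cells of the plain LN bars still held Tcf7 over all UMIs.

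Within Tcf7+ cells the order of the tissues turned for Tgtp1 and Ifi47. Tgtp1 was higher in Tcf7+ tumor cells than in Tcf7+ LN cells, with log2 ratios of 0.86 (0.57 to 1.13) in control and 0.63 (0.39 to 0.86) in CD8-IFNγRKO cells. The cells without a Tcf7 UMI after thinning gave -1.93 and -2.25, but in the LN many of these express Tcf7. Ifi47 did the same, at 0.41 (0.25 to 0.56) and 0.43 (0.32 to 0.53) against -0.36 and -0.55. Tgtp2 was at 0.21 (-0.17 to 0.56) and 0.45 (0.21 to 0.68) in Tcf7+ cells against -0.87 and -0.94, so that in control its interval reached past 0. Igtp and Iigp1 were higher in the tumor in both classes. Between genotypes, the summed members in Tcf7+ tumor cells were at -0.15 (-0.27 to -0.03), against -0.38 (-0.41 to -0.36) in the other tumor cells.

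The summed members differed less between the following classes of tumor cells than between the Tcf7 classes. Tumor cells with a UMI of the cycling genes Mki67 or Top2a had less of the summed members than the rest, at 392 against 522 CPM in control and 330 against 410 CPM in CD8-IFNγRKO cells. Cells with a UMI of Ifng, the gene of the cytokine itself, were close to those without, at 480 and 494 CPM in the control tumor and 364 and 388 CPM in the CD8-IFNγRKO tumor. Cells without Gzmb, which encodes the cytotoxic protease granzyme B, had more of the members in the CD8-IFNγRKO tumor, at 575 against 362 CPM, and by less in the control tumor, at 537 against 482 CPM. In the LN, Ccl5+ cells, Ccl5 being a chemokine of effector and memory cells, had less of the members, at 479 against 597 CPM in control and 439 against 515 CPM in CD8-IFNγRKO cells. Median UMIs differed between these classes. Cycling tumor cells had 11635 against 6341.5 in control and 12887.5 against 8463 in CD8-IFNγRKO. Tumor cells without Gzmb had 4782 against 7304.5 and 5376 against 10345. They also held more Tcf7, at 88.4 against 4.85 CPM and 175 against 7.46 CPM. Ccl5+ LN cells had median UMIs of 5655 against 4038 in control and 5310.5 against 3807.5 in CD8-IFNγRKO. The part of depth and of Tcf7 was not tested.

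Clones were defined in the tumor from paired TCR chains for 4279 control cells in 260 clones and 5933 CD8-IFNγRKO cells in 429 clones. The summed members were highest in cells whose clone was seen once and lowest in expanded clones. In the control tumor they were at 980 CPM in the 183 single cells, 631 CPM in clones of 2 to 9 cells and 476 CPM in clones of 10 or more. In the CD8-IFNγRKO tumor they were at 1062 CPM in the 364 single cells, 600 CPM in clones of 2 to 9 and 347 CPM in clones of 10 or more. The genotypes differed in the expanded clones, at -0.46 (-0.49 to -0.43), and not beyond counting error in clones of 2 to 9 cells, at -0.07 (-0.22 to 0.08), although without cells with 3 or more IFIT and ISG15 UMIs the latter were at -0.21 (-0.40 to -0.03). In single cells CD8-IFNγRKO was higher, at 0.12 (0.00 to 0.23), and this turned to -0.076 (-0.23 to 0.076) when the same cells were left out. Tcf7 moved with clone size too, at 353 CPM in single cells and 4.15 CPM in clones of 10 or more in the control tumor. Ifngr1 was lower in the CD8-IFNγRKO tumor at each size, at 487 against 1115 CPM in single cells and 227 against 733 CPM in expanded clones. Depth also differed between the tumor libraries, with medians of 6288.5 UMIs per cell in control and 9399.5 in CD8-IFNγRKO. Mean UMIs per cell were close between the genotypes in single cells. They were higher in CD8-IFNγRKO in clones of 2 to 9 cells, and by more in clones of 10 or more. Levels by clone size used all UMIs, and the part of depth in their differences was not tested.

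Between the 10 largest clones of each tumor library the summed members ranged from 386 to 715 CPM, median 527 CPM, in control and from 285 to 980 CPM, median 355 CPM, in CD8-IFNγRKO cells. Of the 10 CD8-IFNγRKO clones, 6 lay below the lowest control clone and 9 below the control median. The exception was the eighth largest, with 149 cells, which stood above every control clone at 980 CPM (904 to 1061). Its IFIT and ISG15 level was 1919 CPM, where the other 9 clones lay between 402 and 776 CPM, and its Ifngr1 level was 412 CPM. Its Tcf7 level was 38.3 CPM, on 24 UMIs, where the other 9 lay between 1.67 and 7.33 CPM. It also had the fewest mean UMIs per cell of the 10 CD8-IFNγRKO clones. The part of any of these in its level was not tested. For single members, the CD8-IFNγRKO clones below the lowest control clone ranged from 1 for Irgm2 to 7 each for Igtp and Tgtp1. Those below the control median ranged from 8 to 9. How many of all genes separate the clones in this way was not counted. Clones of a library come from 3 pooled mice and are not replicates of a genotype.

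**Figure D5:**
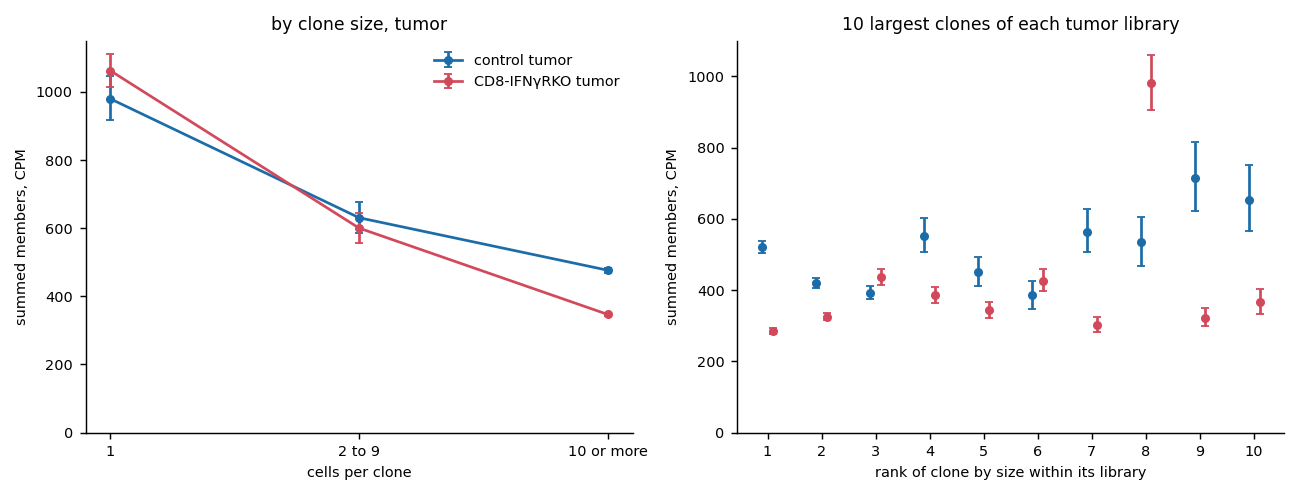
Summed members (CPM) in the tumor by clone size (left) and in the 10 largest clones of each library by rank (right), with 95% Poisson intervals, control in blue and CD8-IFNγRKO in red. The lines meet at small clones and part at 10 or more cells (476 and 347 CPM), and 1 CD8-IFNγRKO clone stands at 980 CPM.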

How the data were processed

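Gene expression libraries (10x 5′ chemistry) were processed by the authors with Cell Ranger and the mm10 reference, and the deposited matrices hold raw UMI counts per gene and cell; the deposited TCR contig tables hold UMI counts per contig. The cell filter required between 200 and 6000 detected genes, a mitochondrial share of UMIs up to 3%, a largest single-gene share up to 20%, and at least 1 UMI of Cd2, Cd8a and Cd8b1. Barcodes with UMIs of 3 or more myeloid genes were dropped, and doublets were not removed. Kept cells held 28841136 to 93899994 UMIs per library. Counts were summed per library or class of cells and given as CPM with exact Poisson intervals, and ratios with the exact conditional binomial interval, at 95%. Classes were set on cells thinned to 1500 UMIs (seed 11), which left out 31 to 665 shallower cells per library, and levels were then taken over all UMIs of the class. Cells shared a clone when the best-covered TRA contig and the best-covered TRB contig had identical V gene, J gene and CDR3 nucleotides. All 7 members, the genes of the lists and the 10 nearest genes were the genes to be named. The counts of the receptor-to-IRF1 list are not reported here. The members and lists were chosen with earlier results of these data known. The interval was tried on simulated Poisson counts, which follow its own assumption. That trial therefore does not speak to variation between cells, clones or mice. Python 3.11.15, NumPy 2.4.6, SciPy 1.17.1 and pandas 2.3.3 were used.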

Additional observations from a re-analysis of the deposited data

How the results depend on the processing

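Across 10 alternatives, the 7 members were below 0 for CD8-IFNγRKO over control in all 70 member values of the tumor and all 70 of the LN, with the counting interval also below 0 in 68 and 69 of them.
The summed log2 ratio in the tumor was -0.32 with all deposited barcodes, -0.25 with each cell thinned to 1500 UMIs and -0.45 without cells with 3 or more IFIT and ISG15 UMIs. The other alternatives, and all those in the LN, stayed within the counting interval.
Members called lower in the tumor numbered 0 after thinning, and in the LN 1 after thinning, 1 without the IFIT and ISG15 cells and 1 with the total that left out TCR segments, heat shock, ribosomal protein and mitochondrial genes. The share of all genes called under these settings was not counted, so these counts cannot be set against it.
For tumor over LN, the summed ratio in control was -0.55 with that total and -0.11 after thinning; in CD8-IFNγRKO it was -0.36 with all barcodes, -0.68 with that total and -0.14 after thinning, where Irgm1 turned from -0.09 to 0.10 and Irgm2 from -0.04 to 0.60.
With a fold of 1 the background was 1.18% lower in the tumor and 0.0268% in the LN for genotype, and for tissue 10.5% lower and 15.5% higher in control and 12.3% and 16.8% in CD8-IFNγRKO.
A setting for clones, chosen after seeing the data, kept only cells of at least 1500 UMIs with 0 to 2 IFIT and ISG15 UMIs. The summed ratio then turned to -0.076 in single-cell clones. It was -0.21 in clones of 2 to 9 and -0.52 in clones of 10 or more. Shallow cells were left out by the same setting. The causes were not tested.
No paired analysis was possible because each genotype and tissue had 1 library. Members under 10 CPM, above all Iigp1 in the LN, are limited by depth.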
